A study of Oryzias latipes with 84 samples.

Results

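Pituitaries of older female medaka (Japanese medaka, Oryzias latipes, a small egg-laying teleost) were compared with those of young adult females, across all genes. The older fish were 249, 255, 277, 375, 375 and 375 days post-fertilization (dpf), and the young adults 131, 131, 172, 172, 179 and 179 dpf. These 12 fish were chosen by sex and age alone out of 84 single-pituitary RNA-seq libraries, of which 68 came from females. All 12 carried the same transgene, lhb:GFP, in the d-rR background, in which the promoter of the Lhβ gene drives a green fluorescent protein. GFP is therefore read as a reporter of this promoter and is no measure of other cells. Whole-pituitary libraries do not show which cells hold its reads. Neither group is labelled with a treatment, and both were kept at 28 °C. Each library holds the RNA of a whole pituitary of 1 fish, so that fewer cells of a type and less RNA per cell cannot be told apart. The older fish were also longer, at 25.5 to 29 mm against 21 to 23.5 mm, and since these ranges do not overlap, age and body length cannot be told apart. Fish of the same labelled age may share eggs, a tank or a sampling day, which the labels do not give. The young adults then stand for 3 ages and the older fish for 4, and p-values over fish would be too small to the extent that fish of 1 age resemble each other.

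The teleost pituitary makes its hormones in separate cell types. Lactotropes make prolactin, which acts on salt balance in fish. Somatotropes make growth hormone and somatolactotropes the related somatolactin. Corticotropes and melanotropes both use the precursor proopiomelanocortin, which is cut into Acth in the former and α-Msh in the latter. Gonadotropes make Fsh and Lh, which act on the gonads, and in fish the hormones are largely made in separate cells. Thyrotropes make Tsh, which acts on the thyroid. Fsh, Lh and Tsh each pair a β-subunit of their own with a common α-subunit. Adult female medaka can spawn daily, around the onset of light, and Lh drives ovulation.

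Total counts ranged from 4221466 to 6575627 per library. Levels are given as CPM, the counts of a gene per 1000000 counts of its library. They are not corrected for gene length and compare fish, not genes. The libraries resembled each other about as much across the groups as within them. The median rank correlation between a young adult and an older library was 0.960, against 0.966 between older libraries and 0.948 between young adult ones (36, 15 and 15 pairs, a description). After all libraries had been thinned to 4221466 counts, between 22743 and 23188 genes were detected in the older fish and between 22121 and 23072 in the young adults. The mean difference of 131 genes did not pass an exact permutation test (two-sided p = 0.513), and without the lowest fish, medaka112, it was -3.47 genes (p = 0.976).

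The libraries of medaka112 and medaka119, both young adults, stood apart. In medaka119, the only fish with an RNA integrity number as low as 8 (the other 8 recorded numbers were 9.6 to 9.8), 97 genes of at least 20 CPM lay more than 20-fold above every other fish and took 10.3% of its counts. Each other fish had 0 or 1 such gene. In medaka112, 470 genes lay more than 5-fold below every other fish, against 17 to 102 in the others. medaka119 also held the lowest level of the 12 fish for 12 of the 22 genes named in the lists here and the GFP cassette, and no highest level. Some results are also given without 1 or both of these fish. The fold changes of gh, cga, fshb, pomca, smtla, nr5a1b and gnrhr2 are given only with both. The same holds for oacyl, crhbp, pcsk2, pax7, mdkb, fth1a, ENSORLG00000009496 and the GFP cassette. It also holds for the counts of tshba per count of cga and of gh per count of prl, and for the medians over gene lists.

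**Figure D1:**
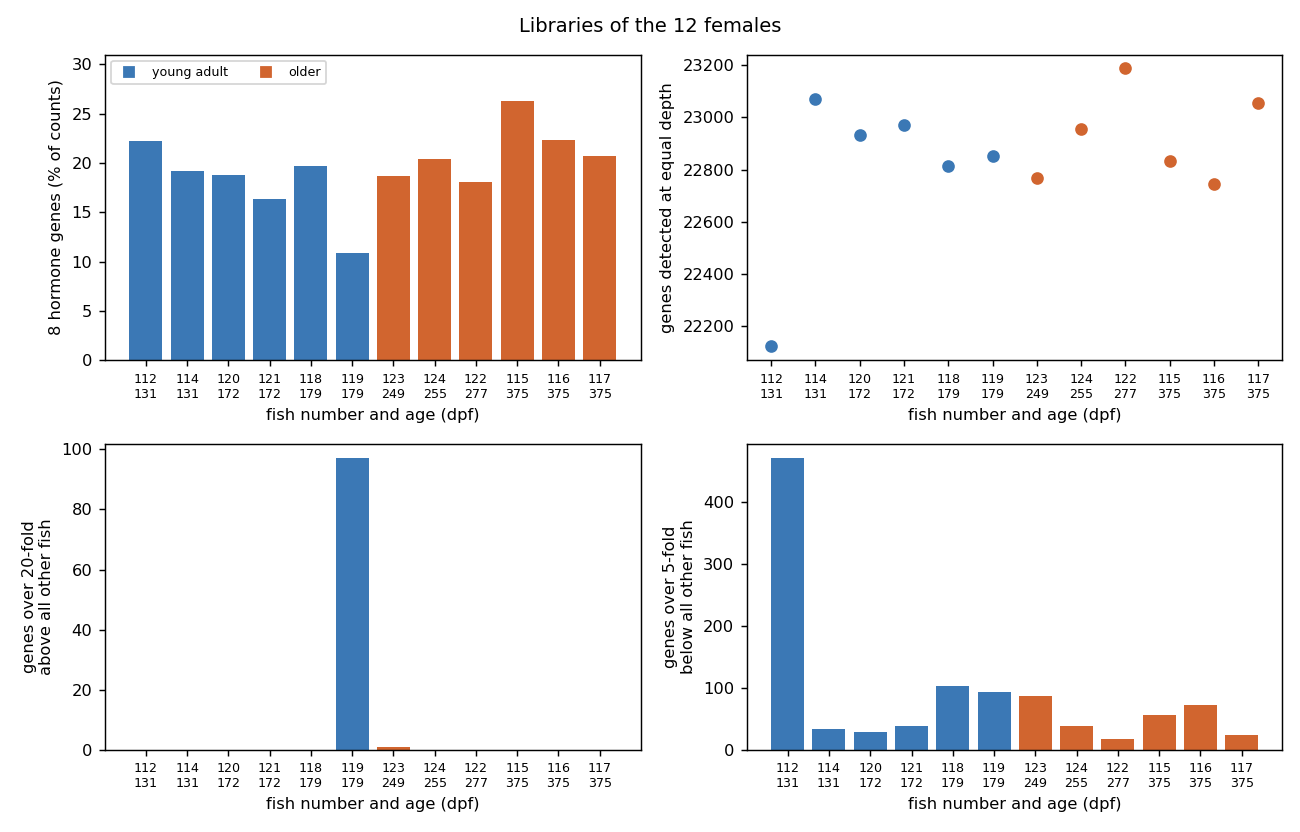
Bars and points show, for each of the 12 fish ordered by age, the percentage of counts in the 8 hormone genes, the number of genes detected at equal depth (axis not from 0), and the numbers of genes far above and far below all other fish. medaka119 stands out with 97 genes above and medaka112 with 470 genes below, and the hormone share is highest in medaka115 (26.2%) and lowest in medaka119 (10.8%).

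The first comparison asked which genes differed with age in adult females. Of 19808 genes with enough counts to be tested, edgeR's quasi-likelihood test called 1 higher in older females and 0 lower (Benjamini-Hochberg adjusted p under 0.05), which is 0.00505% of the genes. At an unadjusted p under 0.05 490 genes were higher (2.47%) and 707 lower (3.57%), together 6.04% of the genes. DESeq2 called 6 genes higher and 4 lower (0.0514% of 19437 genes), including the gene that edgeR called. The CPM of the groups did not overlap for 27 genes that were higher (0.136%) and 27 that were lower (0.136%) in the older fish, or 0.273% of the genes. The median log2 fold change over all genes was -0.02. Leaving out 1 fish at a time, edgeR called between 0 and 4 genes. The highest count came without medaka119, with 2 genes higher and 2 lower.

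The precision differed between genes. The 95% interval of the fold change lay within 2-fold in both directions for 15785 genes, or 79.7%. This share was 90.5% for genes of at least 10 CPM and 58.4% for genes below that level. For the remaining genes, the interval reached or lay beyond 2-fold in at least 1 direction. The spread between fish was wider in the young adults, with a common biological coefficient of variation of 0.379 against 0.238 in the older fish, and 0.256 without medaka119.

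**Figure D2:**
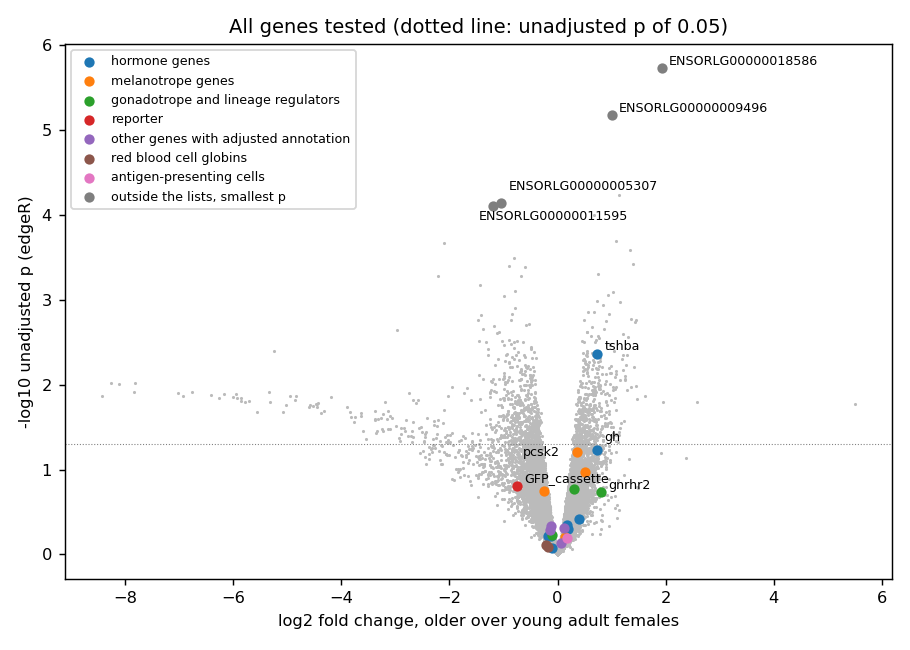
Each point is 1 of the 19808 genes tested, with the log2 fold change of older over young adult females on the x axis and -log10 of the unadjusted edgeR p on the y axis, and named genes are coloured by list. ENSORLG00000018586 has the smallest p, tshba lies above the dotted line of p = 0.05, and the long tail at the left holds genes with log2 fold changes down to -8.42. The plot includes medaka119, and 68 of the 97 genes that stood out in that fish are among the points. A high level in that young adult alone lowers the fold change of a gene. The part of these genes in the tail was not counted.

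None of the 22 genes in the lists and of the GFP cassette was called by edgeR (0 of 23, beside 0.00505% of all genes) and 1 of them, tshba, had an unadjusted p under 0.05 (higher, beside 2.47% of all genes). DESeq2 likewise called 0 of 23 (0.0514% of all genes). In DESeq2, 2 of the 23 had an unadjusted p under 0.05, tshba and gh, beside 6.20% of all genes in either direction. The ranges of the groups overlapped for all 23, where 0.273% of all genes had no overlap. The median log2 fold change was 0.18 over the 8 hormone genes, 0.24 over the 4 melanotrope genes and 0.31 over the 3 regulators. It was -0.03 over the 4 other genes whose models the authors had adjusted and -0.19 over the 2 globin genes. CD74, alone in its list, was at 0.17, and the median over all genes was -0.02. All these values include medaka119.

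Among the hormone genes, the smallest p belonged to tshba (ENSORLG00000029251), which encodes the β-subunit of Tsh. In the older fish, tshba was at 7458 CPM at the lowest, 8441 at the median and 12542 at the highest, and in the young adults at 3699, 5512 and 7816. All older fish but medaka122 lay above every young adult. The means were 9503 ± 2248 (SD, n = 6) and 5701 ± 1702 CPM (SD, n = 6). The fold change of 1.66 had a 95% interval of 1.19 to 2.31 (log2 0.73, SE 0.23). With an unadjusted p of 0.00433 in the fit across all genes it ranked 83rd among the genes tested, and its adjusted p was 0.804 (edgeR). The older fish of 249 to 277 dpf (mean 9346 CPM) and those of 375 dpf (mean 9660 CPM) had like levels. Without medaka119, which held the lowest tshba level, the log2 fold change was 0.63 (unadjusted p = 0.0108, adjusted p = 0.978). The α-subunit gene cga (ENSORLG00000022598), whose product also pairs with the gonadotropin subunits, was at 22036 ± 3665 CPM in the older fish and 19381 ± 5100 in the young adults (SD, n = 6 each). Its fold change was 1.12, with an interval of 0.821 to 1.54. Per count of cga, there were 0.429 ± 0.050 counts of tshba in older fish and 0.303 ± 0.073 in young adults (SD, n = 6 each), a description of the same counts.

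The gh gene (ENSORLG00000019556), encoding growth hormone, had the same mean fold change as tshba with a wider spread. In the older fish gh was at 30809 CPM at the lowest, 55218 at the median and 89420 at the highest. In the young adults these values were 16760, 36005 and 48202 CPM. The 3 fish of 375 dpf had 67551, 80219 and 89420 CPM and lay above all other 9 fish, whereas the 3 fish of 249 to 277 dpf had 30809, 37416 and 42885 CPM, within the range of the young adults. Over all 6 older fish, the fold change was 1.66 with a 95% interval of 0.979 to 2.82 (log2 0.73, SE 0.36, adjusted p = 0.804, edgeR). With only the 375 dpf fish against the young adults, the log2 fold change was 1.21 ± 0.35 (SE, n = 3 and 6, unadjusted p = 0.00513 and adjusted p = 0.986 in edgeR's fit). With only the fish of 249 to 277 dpf it was 0.01 ± 0.35 (SE, n = 3 and 6, adjusted p = 1.00 in edgeR's fit). The difference between the older ages was not tested, and the 375 dpf fish share 1 labelled age.

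The prolactin gene prl (ENSORLG00000016928) lay at similar levels in both groups. It ranged from 39758 to 73393 CPM in older fish (median 59950) and from 42918 to 80078 CPM in young adults (median 60472). The fold change was 0.921, with an interval of 0.666 to 1.27 (adjusted p = 0.958, edgeR), so that a difference of 2-fold lay outside the interval. In all 6 young adults prl had the most counts of the 8 hormone genes. In the older fish this held for medaka123 and medaka124 only, while gh came first in the 3 fish of 375 dpf and pomca in medaka122. Each count of prl was accompanied by 1.02 ± 0.42 counts of gh in older fish and 0.546 ± 0.209 in young adults (SD, n = 6 each), with overlapping ranges. This order and ratio describe the counts that also gave the fold changes. The 8 hormone genes together made up 21.1% ± 2.9 of counts in older fish and 17.8% ± 3.9 in young adults (SD, n = 6 each). The difference of 3.24 percentage points did not pass an exact permutation test (two-sided p = 0.143, where the smallest p possible is 0.00216), and it was 1.84 points without medaka119 (p = 0.286).

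**Figure D3:**
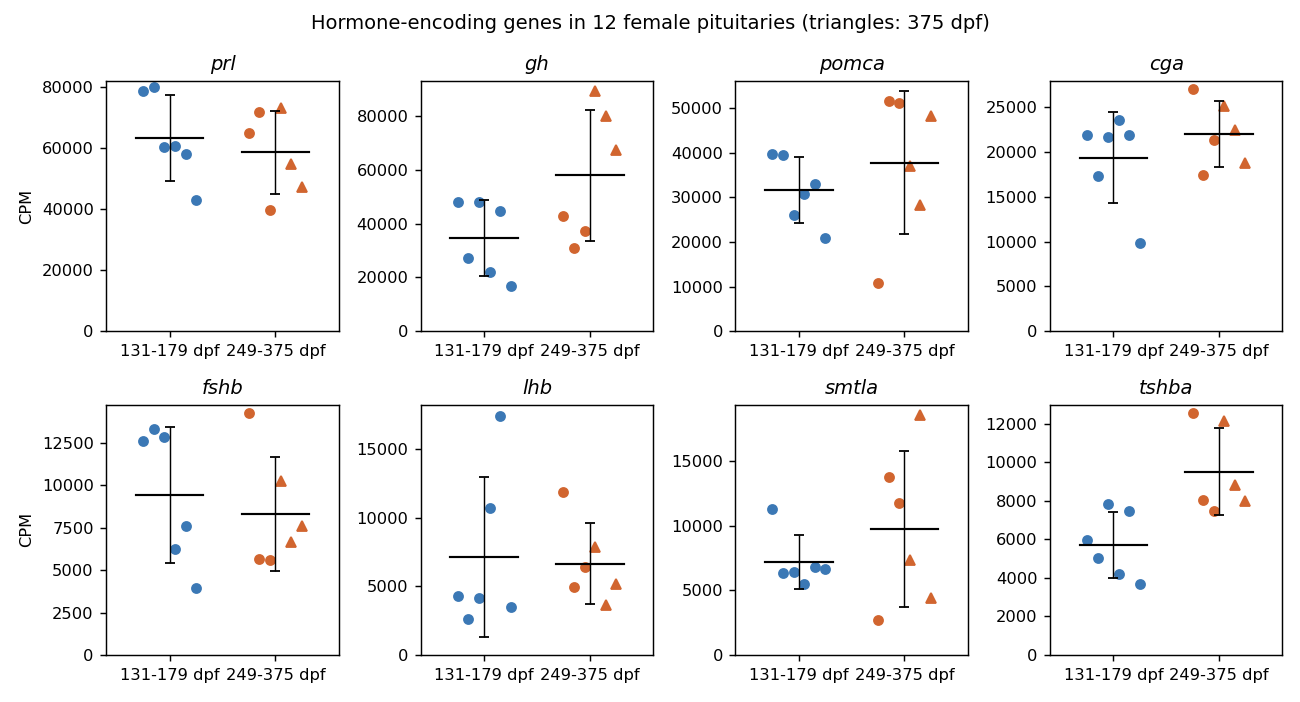
CPM of the 8 hormone genes in each fish (points; triangles are fish of 375 dpf), with the mean (line) and SD (bars) of the 6 young adults at the left and the 6 older fish at the right of each panel. The tshba points overlap only through medaka122 (7458 CPM) and the 3 triangles lie on top for gh, whereas prl, fshb and lhb overlap over most of their range.

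The gonadotropin genes differed more between fish of a group than between the groups. For fshb (ENSORLG00000029237), which encodes the β-subunit of Fsh, older fish had 5599 to 14237 CPM (median 7126) and young adults 3946 to 13296 (median 10112). The fold change was 0.881 with an interval of 0.529 to 1.47 (adjusted p = 0.958, edgeR). For the Lhβ gene lhb (ENSORLG00000003553), older fish had 3604 to 11872 CPM (median 5807) and young adults 2639 to 17429 (median 4229). The young adult range was set by medaka118, at 17429 CPM, and medaka121, at 10711, since the other 4 young adults were at or below 4320. The fold change of lhb was 0.934, with an interval of 0.440 to 1.98 that reached beyond 2-fold downward and to nearly 2-fold upward. Its sign turned when medaka118 was left out (log2 0.37, adjusted p = 0.878, edgeR).

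The lists held 2 further genes of gonadotropes. The transcription factor gene nr5a1b (ENSORLG00000013196), related to steroidogenic factor 1, was at 689 ± 113 CPM in older fish and 555 ± 201 in young adults (SD, n = 6 each; fold change 1.24, interval 0.905 to 1.70). gnrhr2 (ENSORLG00000012659), encoding a receptor for gonadotropin-releasing hormone, was at 42.5, 113 and 158 CPM at the lowest, median and highest in older fish, and at 17.5, 33.7 and 174 CPM in young adults. In 4 young adults gnrhr2 lay at or below 35.6 CPM, under the lowest older fish, while medaka118 held the highest value of all. Its fold change of 1.75 had the widest interval of the genes in gonadotropes, from 0.730 to 4.18 (adjusted p = 0.856, edgeR). Without medaka118 the fold change of gnrhr2 was 2.81 (log2 1.49, SE 0.41, unadjusted p = 0.00374, adjusted p = 0.638, edgeR). The fish with the most gnrhr2, medaka118, was also the fish with the most lhb.

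The GFP cassette had 8730 to 43671 CPM in older fish (median 21067) and 21054 to 83655 in young adults (median 34580). The 3 lowest fish were older ones, and the fold change was 0.599 with an interval of 0.285 to 1.26 (log2 -0.74, SE 0.49, adjusted p = 0.846, edgeR). The reporter did not follow lhb in a fixed ratio. In 7 fish there were 7.81 to 10.5 counts of GFP per count of lhb, whereas in the other 5 there were 1.21 to 2.94, with no fish between. The 5 fish were medaka118 among the young adults and medaka115, medaka117, medaka122 and medaka123 among the older fish. The GFP level thus differed between fish in a way that the lhb level did not show, and the number of transgene copies per fish is not given in the labels.

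For pomca and 3 of the 4 other genes named for melanotropes, the spread between fish was wider in the older group, and for pomca this rested on medaka123. pomca (ENSORLG00000025908), encoding proopiomelanocortin, was at 10767 CPM at the lowest, 42520 at the median and 51504 at the highest in older fish, and at 20972, 31879 and 39792 in young adults. The older fish fell on both sides of the young adults, with 3 above and 1 below all of them. The fold change was 1.14 (interval 0.759 to 1.72, adjusted p = 0.944, edgeR). These 4 genes were oacyl, an acyltransferase-like gene, crhbp, whose product binds corticotropin-releasing hormone, pcsk2, the prohormone convertase that cuts Acth to α-Msh, and pax7, a transcription factor of the melanotrope lineage in mice. Of these, pcsk2 (ENSORLG00000006472) had the smallest p, at 1158 ± 224 CPM against 896 ± 244 (SD, n = 6 each; fold change 1.28, interval 0.986 to 1.65, unadjusted p = 0.0626, adjusted p = 0.804, edgeR). crhbp (ENSORLG00000002228) was at 84.6 to 413 CPM in older fish (median 196) and 90.8 to 173 in young adults (median 149), a fold change of 1.43 with an interval of 0.917 to 2.23. With only the fish of 375 dpf, the log2 fold change of crhbp was 0.87 (adjusted p = 0.986, edgeR), and with only those of 249 to 277 dpf 0.03. oacyl (ENSORLG00000005993) was at 450 ± 221 CPM against 394 ± 75, and pax7 (ENSORLG00000004269) at 22.6 ± 6.6 against 26.0 ± 4.1 (SD, n = 6 each). As a coefficient of variation, the spread of pomca was 42.6% in older fish and 23.4% in young adults, and 23.7% in older fish without medaka123. That of oacyl was 49.1% in older fish, 36.0% without medaka123, and 19.1% in young adults. In the same order, crhbp had 54.2%, 45.4% and 23.2%, and pax7 29.2%, 24.6% and 15.7%. For these 3 genes the older group thus stayed wider without medaka123. pcsk2 had 19.3%, 9.46% and 27.2%.

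A single older fish held the lowest older level of each of these genes. medaka123, of 249 dpf, was the lowest older fish for all 5 of pomca, oacyl, crhbp, pcsk2 and pax7, and the lowest of the 12 for 4 of them. The exception was pcsk2, which was lower in the young adults medaka112 and medaka119. At the low end medaka123 was not alone. The older fish medaka116 also lay below every young adult for oacyl (278 CPM) and pax7 (18.2 CPM). medaka123 also held the lowest smtla level of the 12, at 2686 CPM, and the highest of the 12 for tshba (12542 CPM), fshb (14237) and cga (27071). smtla (ENSORLG00000013460), encoding somatolactin, spread from 2686 to 18577 CPM in older fish (median 9586), whereas 5 of 6 young adults lay between 5484 and 6831 CPM and medaka112 at 11331. Its fold change was 1.32 with an interval of 0.679 to 2.55 (adjusted p = 0.924, edgeR). For smtla, medaka117 (4419 CPM) also lay below every young adult. The coefficient of variation of smtla was 61.8% in older fish, 49.3% without medaka123, and 29.0% in young adults.

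pou1f1 (ENSORLG00000015870), the Pit-1 transcription factor of the lineage of lactotropes, somatotropes and thyrotropes, was at 116 to 164 CPM in older fish (median 136) and 80.1 to 180 CPM in young adults (median 153). Its fold change was 0.932 (interval 0.711 to 1.22). The 4 other genes whose models the authors had adjusted lay close to 1 with narrow intervals. These were mdkb, a midkine growth factor gene (0.916, 0.717 to 1.17), eef1a, a translation elongation factor gene (1.04, 0.810 to 1.35), fth1a, encoding a ferritin heavy chain (1.09, 0.848 to 1.40), and mcee, encoding a mitochondrial epimerase (0.912, 0.681 to 1.22).

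Markers of cells other than the hormone producers were present in both groups. The globin genes gb (ENSORLG00000003046) and hbbe2 (ENSORLG00000026120), which mark red blood cells, were at 497 to 2272 and 1516 to 6117 CPM in older fish, and at 227 to 4946 and 700 to 13094 CPM in young adults. The highest and the lowest globin levels were both in young adults, medaka112 and medaka118. Their fold changes were 0.883 and 0.868, with intervals from about 0.286 to 2.73 for gb and 0.291 to 2.59 for hbbe2, and without medaka112 both signs turned (log2 0.68 and 0.62). CD74 (ENSORLG00000004913), the invariant chain gene that marks antigen-presenting cells, was at 625 to 1518 CPM in older fish (median 990) and 306 to 1550 in young adults (median 803), a fold change of 1.12 with an interval of 0.658 to 1.92. The part of these cells in the results was not tested.

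**Figure D4:**
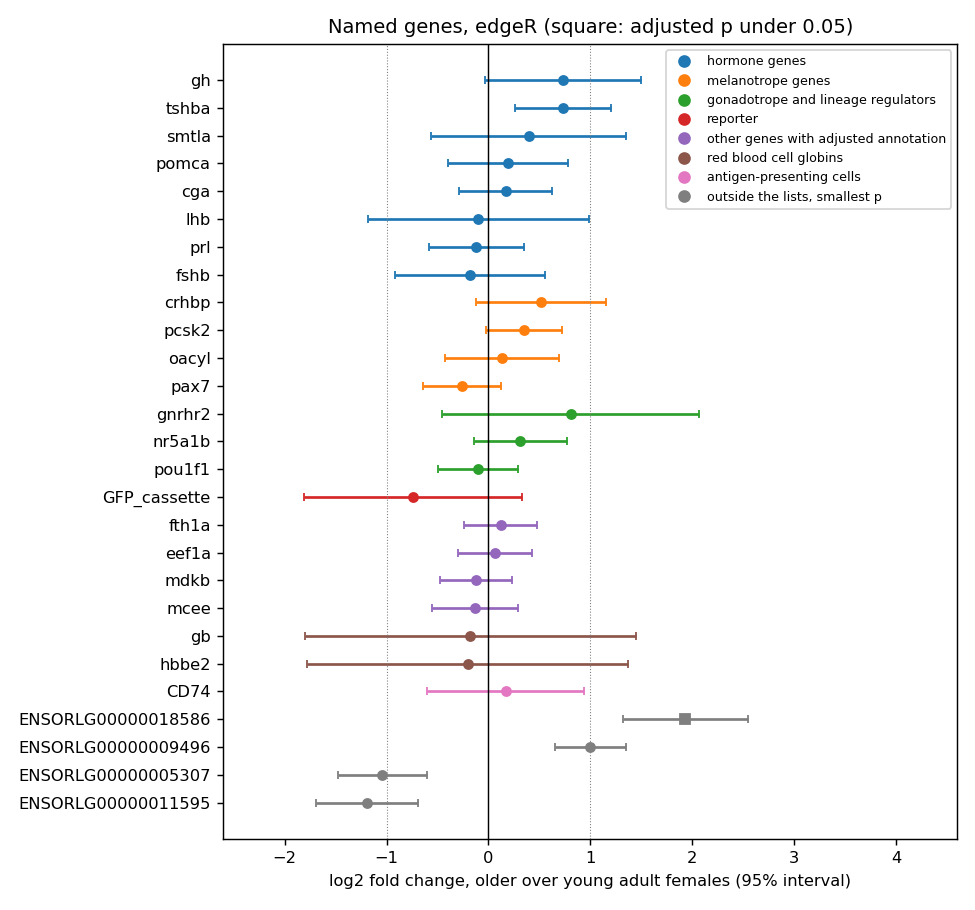
Log2 fold change of older over young adult females (points) with its 95% interval (bars) from edgeR for the named genes, coloured by list, where dotted lines mark 2-fold and the square marks an adjusted p under 0.05. Among the list genes only the interval of tshba lies off 0 (fold change 1.66), and the globins, gnrhr2, lhb and the GFP cassette have the widest intervals.

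The 4 genes outside the lists that were named by their p have no symbol in the tables used, and nothing is said here of what they encode. ENSORLG00000018586 rose in older females, by a fold change of 3.81 with an interval of 2.49 to 5.83 (log2 1.93, SE 0.29, adjusted p = 0.0373, edgeR). Its levels were 18.9, 15.7 and 11.8 CPM in the fish of 375 dpf and 34.6, 32.7 and 19.2 CPM in those of 277, 249 and 255 dpf. The young adults had 7.5, 3.6, 6.9, 6.6, 5.2 and 3.5 CPM. Every older fish lay above every young adult, as was true of 27 higher genes in all (0.136%). The gene was picked by its p in these same fish, so this is no separate support. In CPM, the fish of 249 to 277 dpf lay above those of 375 dpf, narrowly so for medaka124 (19.2) against medaka115 (18.9). CPM do not include edgeR's scaling factors, 0.993 for medaka124 and 0.939 for medaka115, with which these 2 fish change order. These levels rest on 15 to 42 counts per young adult and 68 to 183 counts per older fish. The call held in 15 of 30 alternative fits, and the fold change was above 1 in all 30. Leaving out 1 fish at a time, it was lost without any of medaka114, medaka115, medaka116, medaka120, medaka121, medaka122, medaka123 and medaka124, with adjusted p from 0.0110 to 0.229 over the 12 fits. Without both medaka112 and medaka119 its adjusted p was 0.00427, and with counts summed per labelled age 0.0877. With body length as a covariate no gene passed, and the log2 fold change of ENSORLG00000018586 was 2.89 (adjusted p = 1.00, edgeR).

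ENSORLG00000009496 did not pass in edgeR (a fold change of 2 with an interval of 1.57 to 2.55, adjusted p = 0.0667) and passed in DESeq2 (adjusted p = 0.000977). It was called in 5 of 30 alternative fits, among them edgeR's fit without medaka119 and the one without medaka118. It was at 52.2, 81.2 and 89.0 CPM at the lowest, median and highest in older fish, and at 25.0, 37.3 and 54.8 CPM in young adults, and only medaka124 lay within the young adult range. The 2 genes with the smallest p among those with lower levels in older fish also missed the threshold in edgeR, both with an adjusted p of 0.311, and passed in DESeq2. For ENSORLG00000005307, older fish had 8.8 to 20.9 CPM (median 14.5) and young adults 21.3 to 42.4 (median 29.4), a fold change of 0.486. For ENSORLG00000011595, older fish had 16.9 to 25.5 CPM (median 20.6) and young adults 29.0 to 83.0 (median 43.8), a fold change of 0.437. Neither gene overlapped between the groups, as was true of 27 lower genes in all (0.136%). Both were picked by their p in these same fish, so the lack of overlap is no separate support. The highest value of ENSORLG00000011595 came from medaka119, and without that fish its log2 fold change was -0.95 (adjusted p = 0.115, edgeR), while ENSORLG00000005307 then passed (log2 -1.12, adjusted p = 0.0250, edgeR). In a fit on log2 age as a number over these 12 fish alone, ENSORLG00000009496 rose and ENSORLG00000005307 fell with age (adjusted p = 0.0190 for each, edgeR). ENSORLG00000018586 did not pass in that fit (adjusted p = 0.799).

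The levels of the 12 fish were set beside those of the 56 females of 32 to 111 dpf, in 7 further age groups, as a description without a test. A library of the group of 79 to 92 dpf had only 146 CPM of tshba and 2936 CPM of gh, so group medians are used. The older fish had the highest median of the 9 female groups for gh (55218 CPM), tshba (8441), lhb (5807) and cga (21911). For cga the median of the young adults (21778 CPM) was next to it. The older fish also ranked highest for nr5a1b, gnrhr2, eef1a, mcee and CD74, so this rank was not particular to hormone genes. Its share over all genes was not computed. By the mean, lhb was higher in the young adults (7124 CPM) than in the older fish (6650 CPM). The lowest group median of cga was 1474 CPM, in the youngest fish. For gh, the young adult median (36005 CPM) ranked 7th of 9 and the lowest was 26894 CPM at 64 to 74 dpf. tshba had its lowest group median in the same age group (2878 CPM). The medians of pomca, oacyl, crhbp and pcsk2 were lowest of all groups in the young adults, and those of the older fish ranked 8th, 8th, 7th and 7th, also among the low groups. The other melanotrope gene, pax7, went the other way. Its median was lowest in the older fish (22.1 CPM), and that of the young adults (28.2 CPM) ranked 8th. gnrhr2 had its lowest median in the young adults (33.7 CPM) and its highest in the older fish (113 CPM). The same held in part for the gene called. ENSORLG00000018586 had medians of 18.8 to 31.6 CPM in the 7 younger groups and 19.1 CPM in the older fish, and the young adults, at 5.9 CPM, were the lowest of the 9 groups. The older fish thus lay within the range of the medians of younger females, and the young adults lay below it. By contrast, ENSORLG00000009496 had medians of 23.2 to 40.9 CPM in all groups but the older fish, at 81.2 CPM. ENSORLG00000011595 was lowest in the older fish (20.6 CPM) and highest in the young adults (43.8 CPM). ENSORLG00000005307 did not fall steadily over the female age groups. Its median was lowest at 32 to 35 dpf (11.9 CPM) and highest at 96 to 111 dpf (36.5 CPM). The older fish, at 14.5 CPM, ranked 8th of 9.

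**Figure D5:**
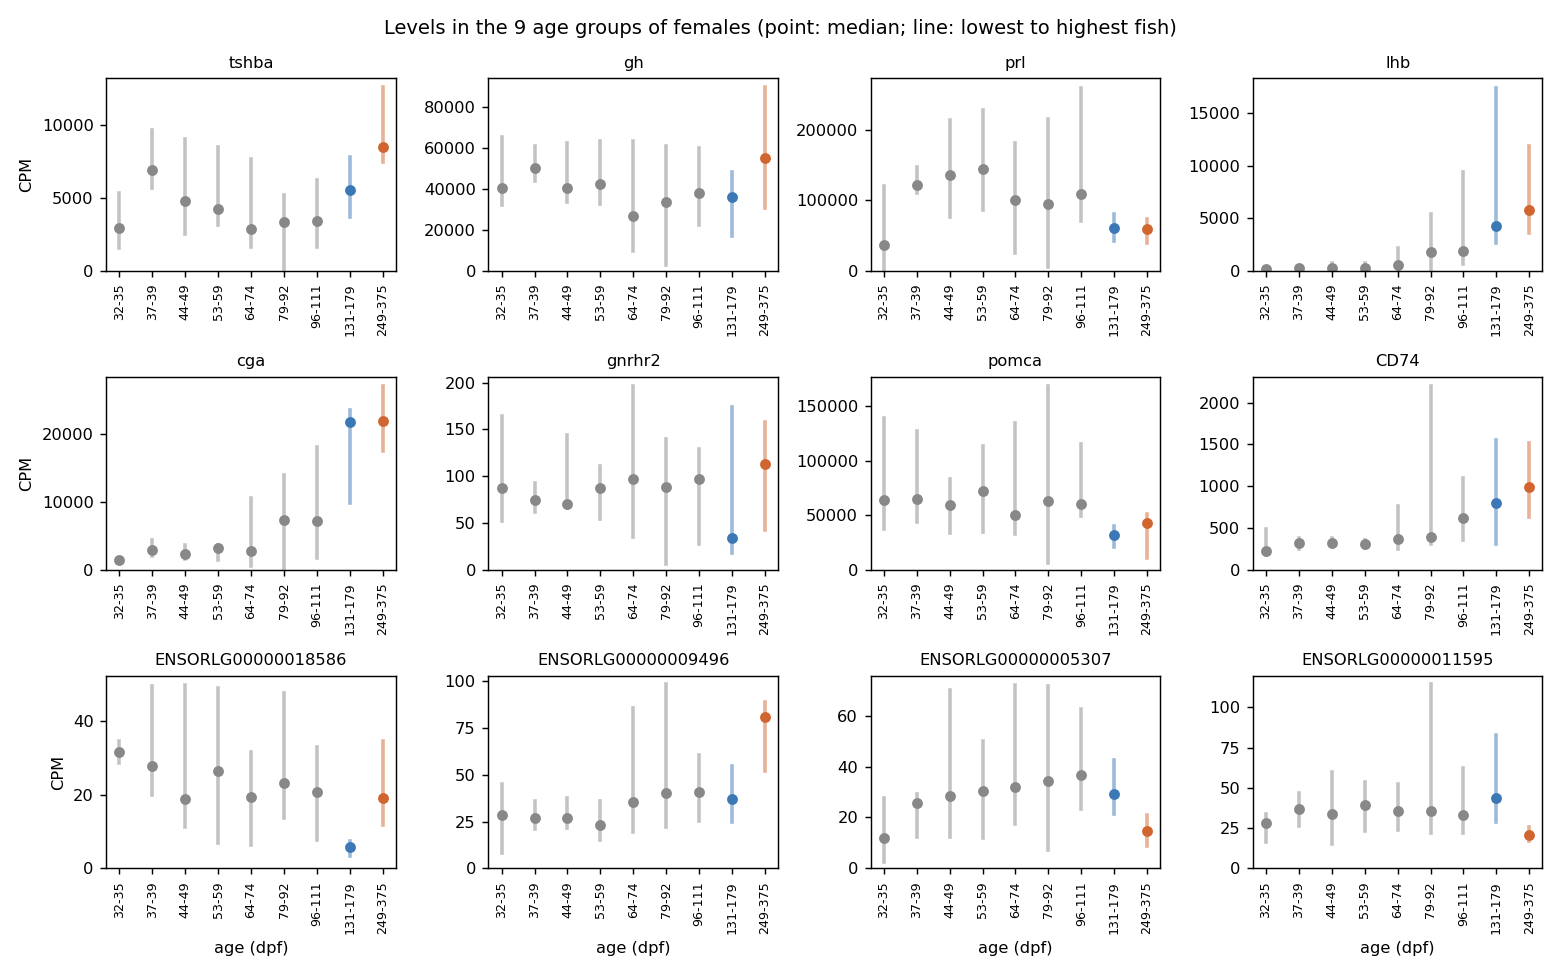
CPM of 12 named genes in the 9 age groups of females, as the median (point) and the range from the lowest to the highest fish (line), with young adults in blue and older fish in orange. ENSORLG00000018586 dips only in the young adults (median 5.9 CPM), ENSORLG00000009496 is highest in the older fish (81.2 CPM), and cga has like medians in young adults (21778 CPM) and older fish (21911 CPM).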

How the data were processed

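The authors deposited a table of whole-number read counts per gene, not normalized, for single pituitaries whose libraries were made with the Smart-SEQ HT kit. Per the submitters' processing notes, STAR 2.7.6a, SAMtools 1.10 and HTSeq 0.11.2 were used, on a medaka genome to which the GFP cassette and corrected 3′ gene models had been added. The paper names the intersection-nonempty mode of HTSeq for its single-cell reads and does not say whether it also holds for the bulk libraries. A strand setting is not given in the sources used here. Reads of overlapping or antisense genes therefore cannot be separated. Reads carry no molecular identifiers. The number of counts by itself speaks only to counting error, whereas the SEs and intervals given here also include the spread between fish. The table has 24364 entries, all with a gene or cassette name, and no identical libraries.

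Each fish was 1 replicate. The main test was the quasi-likelihood test of edgeR 4.0.16 (R 4.3.3), with filterByExpr, TMM scaling, a robust fit and a threshold of 0.05 on the adjusted p. SEs were derived from the F statistic, and intervals from it at 95%. Hormone shares and genes detected were compared by exact permutation in Python 3.11.15 with numpy 2.4.6, pandas 2.3.3 and scipy 1.17.1. Plots used matplotlib 3.10.9. The edgeR fit was also run on simulated counts with known changes, as a check of the code only. The simulated fish were drawn independently, without likeness by age and without a library like medaka119. The check therefore does not cover these conditions.

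Members and gene lists were chosen with earlier results of these data known. Named were the 22 genes of 6 lists that the paper's text, tables or plots pair with an identifier, the GFP cassette, and, as no table paired identifiers with symbols (0 matched), the 2 identifiers with higher and the 2 with lower levels that had the smallest p. The remaining 20 lists were written by symbol and could not be matched. The alternatives were DESeq2 1.42.0, other scaling and filters, each fish left out, the older ages apart, age as a number, counts summed per labelled age, fits over all females or all libraries, and covariates. Fits without medaka119, or without medaka112 and medaka119, other than leaving out 1 fish, were added after seeing the data, as were spreads without medaka123.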

Additional observations from a re-analysis of the deposited data

Results flagged for a closer look

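Within each group of 6 fish, 58 checks were run for a fish far from the others of its group (a gap above Dixon's 95% critical value), and 7 stood out. Chance alone flags about 1 in 20 such checks. At equal depth, medaka112 had 22121 detected genes, where its group otherwise spanned 22814 to 23072, and a smtla level of 11331 CPM, against 5484 to 6831. medaka118 had 174 CPM of gnrhr2, where the other young adults had 17.5 to 69.2. medaka119 had 508 CPM of mdkb, below the 886 to 1090 of the others. medaka121 had 83655 CPM of the GFP cassette, above the 21054 to 42574 of the others. Among the older fish, medaka116 had 908 CPM of nr5a1b, against 577 to 682, and medaka123 had 6441 CPM of eef1a, against 4994 to 5210.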

How the results depend on the processing

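The count of called genes (1 in edgeR) was 10 in DESeq2 and 16 in DESeq2 without medaka119, 2 with log2 age as a number, 3 with RNA integrity number as a covariate (9 fish) and 0 to 4 with 1 fish left out. It was 0 with RLE size factors, with only the fish of 249 to 277 dpf and with only those of 375 dpf. It was also 0 with counts summed per labelled age and with body length as a covariate. In these fits without a called gene, from RLE size factors to body length, 547 to 1199 genes had an unadjusted p under 0.05. That was 2.67% to 6.05% of those tested. One fit of all 68 females called 144 genes (137 lower) and one of all 84 libraries 137 (133 lower). Of those lower, 77 and 80 were among the 97 genes that stood out in medaka119. Without that fish, a fit of 67 females called 0 genes, with 392 of 21828 (1.80%) at an unadjusted p under 0.05. No list gene was called in any alternative, and the smallest adjusted p was 0.421 (tshba, DESeq2).

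Signs turned for several list genes, all with intervals that crossed 0. As every list gene but tshba had such an interval, this sets few genes apart. With 1 fish left out, log2 fold changes ranged from -0.21 to 0.022 for prl, -0.23 to 0.034 for pou1f1, -0.23 to 0.043 for mcee, -0.41 to 0.68 for gb, -0.43 to 0.62 for hbbe2, -0.38 to 0.37 for lhb, -0.013 to 0.37 for CD74 and -0.026 to 0.15 for eef1a, and the difference in genes detected from -3.47 to 187. For lhb the value was 0.093 with only 249 to 277 dpf, 0.038 with counts summed per age and 0.021 with the integrity number, and for CD74 -0.018 with only 249 to 277 dpf and -0.061 with the integrity number. Without medaka112 and medaka119, CD74 was at -0.11, gb at 0.55 and hbbe2 at 0.46. Without medaka119, CD74 and eef1a were at -0.013 and -0.030 in DESeq2 and at -0.010 and -0.026 in the fit of 67 females. The integrity number also gave -0.0017 for eef1a, -0.10 for pomca, -0.20 for oacyl and -0.0041 for crhbp. Genes detected as a covariate gave 0.0027 for pou1f1, 0.35 for gb and 0.31 for hbbe2. Body length as a covariate gave 0.067 for prl, -1.45 for smtla, 0.87 for fshb, 0.85 for lhb, -0.11 for pcsk2, 0.30 for pou1f1, 0.21 for mcee, 2.12 for gb and 2.25 for hbbe2. The cause of these changes was not tested.

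No paired analysis was possible because the labels give each fish a number of its own and no replicate number shared between the groups. The 95% interval lay within 2-fold for 58.4% of genes under 10 CPM and 90.5% of the others, and the parts of depth and of spread between fish in this were not tested.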
